A study of Mus musculus with 23 samples.

Results

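Denervated skeletal muscle of mice labelled as a knockdown of NRF1 was compared, gene by gene, with denervated muscle of WT control mice. Members were the libraries named by the columns of one deposited table, 3 labelled NRF1 KD (numbers 1, 2 and 3) and 2 labelled WT con (numbers 2 and 3), which are 5 of the 23 samples of the series. All 15624 genes of that table were measured in both groups. The WT con group carries the genotype labels con and WT mice, the knockdown group NRFkd and NRF1PAL KD mice, and both had been denervated for 10 d. The same table holds 3 libraries labelled NRF1-PAX4 double KD (Dmut), denervated for as long, whose values are set beside those of NRF1 KD because both were measured against the same WT con libraries. Innervated WT muscle (3 libraries), WT muscle denervated for 10 d (3) and denervated PAX4 KO muscle (3) formed a separate set of raw counts, of which the first 2 groups give the response to denervation itself. The labels do not say which muscle was taken, how the knockdown was made, in which cells it acts, or how many animals each library holds, so each p-value reflects variation between libraries that may be partly technical. WT con library 1, both samples labelled WT Innervated and the 3 samples at 14 d were not analysed here.

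Cutting the motor nerve leaves muscle fibres without electrical activity. Fibres respond by raising acetylcholine receptor subunits, the kinase Musk and the transcription factor Myog along the whole membrane, and by breaking down their contractile proteins through the ubiquitin-proteasome system and autophagy. The suffix PAL in the labels names alpha-PAL, the product of Nrf1, a factor that binds GC-rich palindromes in promoters and is best known for genes of mitochondrial respiration and mitochondrial DNA upkeep. It is a different protein from Nfe2l1, which shares the older name NRF1 and raises proteasome genes when proteasomes are inhibited. The title of the series asks which factors control proteasome genes.

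Recovered reads ran from 23740769 to 30165765 per library over the table's 8 libraries, and libraries of one group varied by more than counting allows (ratio of chi-square to its degrees of freedom 22.2 to 37.3). All 9 muscle fibre markers were measured, among them Acta1, Tnnt3, Ckm and Des, and 0 of 9 passed the test between the groups (limma; 0 at an unadjusted p under 0.05; median log2 fold change -0.12). Nrf1 mRNA stood at 488 and 444 normalised counts in WT con and at 499, 476 and 524 in the libraries labelled NRF1 KD, so the groups overlapped. Its log2 fold change was 0.10 ± 0.12 (SE, adjusted p = 0.618), which does not check the label. The group is therefore called by its label throughout, and protein was not measured. Nfe2l1 did not pass either, at 15670 and 16809 against 15616, 15810 and 13594 normalised counts. Pax4 was not among the genes of the table.

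Of 15624 genes tested with limma, 1184 were higher in the libraries labelled NRF1 KD (7.58%) and 581 were lower (3.72%), at an adjusted p under 0.05. Counts for the gene lists below stand beside these shares. The 2 directions differed in size. The median log2 fold change of genes that rose was 1.23, at a median level of 241 normalised counts, and 759 of them rose by at least 1 on the log2 scale. Genes that fell had a median of -0.51 at a median level of 1846 normalised counts, and 58 of them fell by at least 1. Among the 9312 genes with a mean of at least 200 normalised counts, 654 rose and 545 fell. The median over all genes was 0.00, and -0.08 over genes at 200 or more. The authors' deposited table held 1515 higher and 844 lower genes at the same threshold, and 1754 of the 1765 genes called here were among them with the same direction.

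Single libraries weighed heavily on the number of calls. Without WT con library 2, which leaves that group with 1 library whose spread is taken from the other groups, 415 genes were higher and 156 lower. Without WT con library 3, 306 were lower. Without NRF1 KD library 2, 595 were higher and 292 lower, and without NRF1 KD library 3, 424 and 126. A core of 284 higher and 68 lower genes stayed called, with the same direction, whichever 1 of the 8 libraries was left out. Examples below come first from that core, which is called stable, and where leaving out 1 library moved a list's count, the lowest value is given for the lists described at length.

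**Figure D1:**
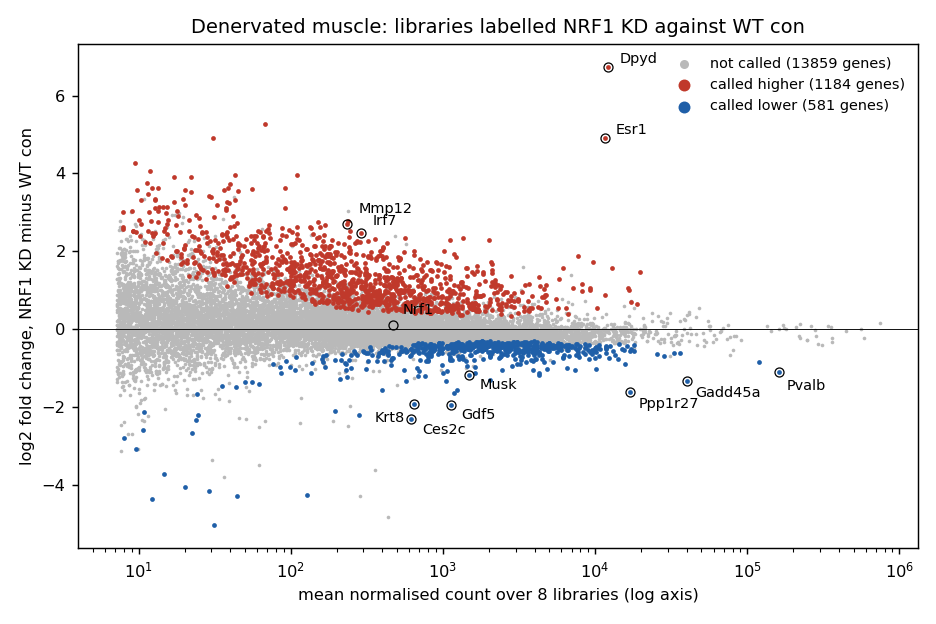
Each point is 1 of 15624 genes, placed by its mean normalised count over 8 libraries (horizontal, log axis) and its log2 fold change, NRF1 KD minus WT con (vertical). The 1184 called higher are red and the 581 called lower are blue; higher calls are larger in size and reach lower levels, and Dpyd (6.74) and Esr1 (4.92) stand far above genes of like abundance.

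The letters alpha-PAL is known to bind were looked for in promoters, since the labels name that factor. RefSeq promoter sequences of assembly GRCm38.p6, from 250 bases before to 50 after the start, were matched by Ensembl identifier or, failing that, by symbol. Sequences were available for 11472 of the 15624 genes. They were searched for the palindrome GCGCATGCGC, which reads the same on both strands, and for the looser GCGCANGCGC. In all 32851 promoter sequences of that source the palindrome stood in 0.971% and the looser form in 4.60%, and among genes of the table in 2.06% and 10.2%. Genes that fell held it in 19 of 456 promoters (4.17%; looser form 15.1%), and genes that rose in 5 of 912 (0.548%; 2.30%). Among genes with a mean of at least 200 normalised counts the shares were 4.36% for those that fell and 0.797% for those that rose. Over all genes at that level the share was 2.496%. The looser form stood in 15.37% of those that fell, 3.19% of those that rose and 12.48% of all genes at that level. A match is a description of letters and not of binding.

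Windows of up to 25 bases on either side of the palindrome, in capitals, are shown for the 3 called genes with the lowest fold change that hold it before the start, for called members of the gene lists, and for the known alpha-PAL targets Alas1 and Fmr1. Each is read 5′ to 3′ on the gene's own strand.
Egf (chr3:129725131-129725190, minus strand): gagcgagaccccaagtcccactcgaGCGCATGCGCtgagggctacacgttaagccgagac
Cbfb (chr8:105170510-105170569, plus strand): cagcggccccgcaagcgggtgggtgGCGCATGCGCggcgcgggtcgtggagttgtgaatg
Naa16 (chr14:79390763-79390822, minus strand): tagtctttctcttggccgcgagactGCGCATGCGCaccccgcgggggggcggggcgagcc
Nploc4 (chr11:120437723-120437782, minus strand): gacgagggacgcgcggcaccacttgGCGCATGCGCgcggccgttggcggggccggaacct
Psma2 (chr13:14613090-14613149, plus strand): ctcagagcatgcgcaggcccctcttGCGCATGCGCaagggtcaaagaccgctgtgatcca
Cox6a1 (chr5:115349086-115349145, minus strand): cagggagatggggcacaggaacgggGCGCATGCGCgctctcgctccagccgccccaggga
H2-DMa (chr17:34122590-34122649, plus strand): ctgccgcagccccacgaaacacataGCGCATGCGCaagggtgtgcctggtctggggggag
Alas1 (chr9:106247891-106247950, minus strand): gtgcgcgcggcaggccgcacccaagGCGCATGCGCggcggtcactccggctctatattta
Fmr1 (chrX:68678423-68678482, plus strand): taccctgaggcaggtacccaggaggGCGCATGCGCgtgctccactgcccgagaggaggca

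The genes behind these windows did not move one way. Egf, a growth factor, fell by 0.79 on the log2 scale (adjusted p = 0.00441), and its promoter holds the palindrome at 2 places, 79 and 21 bases before the start. Cbfb, the partner of Runx factors, stood at -0.62 and Naa16, a subunit of an N-terminal acetyltransferase, at -0.62, both called. The p97 cofactor Nploc4 fell by 0.43 and the proteasome core subunit Psma2 by 0.39 (adjusted p = 0.0175 and 0.0348). Cox6a1, a subunit of cytochrome c oxidase, rose by 0.63 (adjusted p = 0.00541), and H2-DMa, which loads peptides onto MHC class II, rose by 1.16 (adjusted p = 0.0368). Alas1, the first enzyme of haem synthesis, did not pass at -0.09 (adjusted p = 0.702), nor did Fmr1 at 0.29 (adjusted p = 0.209). Of 33 proteasome genes with a promoter sequence, 2 held the palindrome.

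Dpyd and Esr1 had the highest fold changes of the called genes whose mean reached 200 normalised counts. Dpyd, which encodes the first enzyme of pyrimidine breakdown (chr3:118562129-119432924, GRCm38), stood at 139 and 156 normalised counts in WT con and at 19966, 13823 and 14430 in the libraries labelled NRF1 KD. Its log2 fold change was 6.74 ± 0.20 (SE, adjusted p = 4.47e-08). Esr1, the estrogen receptor alpha gene (chr10:4611593-5005614), stood at 541 and 459 against 16062, 14107 and 15145 (4.92 ± 0.10, adjusted p = 2.2e-09). Every library labelled NRF1 KD lay far above both WT con libraries for these 2 genes. The libraries labelled double KD lay at 13436 to 21169 for Dpyd and at 14970 to 15839 for Esr1. With denervation of WT muscle Dpyd was not called (log2 fold change 0.00) and Esr1 fell by 0.56 (adjusted p = 0.011). The raw count set also holds denervated PAX4 KO muscle, where Esr1 lay at 493, 437 and 566 CPM (counts scaled to a common library total) against 20.1, 19.5 and 18.4 in denervated WT muscle. Dpyd lay at 5.69, 4.08 and 5.82 CPM there, against 3.66, 3.78 and 3.06. Esr1 was thus also high in a group not labelled as a knockdown of NRF1; the PAX4 KO values are given with no test.

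Genes that muscle raises when it loses its nerve were lower in the libraries labelled NRF1 KD. Of 26 measured genes on a list of acetylcholine receptor subunits and other denervation-response genes, 13 fell and 1 rose. Over all genes 3.72% fell and 7.58% rose. The median of the 26 was -0.54 on the log2 scale, and 22 of the 26 values were negative. With WT con library 2 or NRF1 KD library 3 left out, 7 fell. In the denervation comparison 19 of the 26 were higher and 3 lower in denervated than in innervated WT muscle (edgeR), where 16.5% of all genes tested were higher and 15.8% lower.

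Gdf5, a BMP family ligand that is secreted by denervated muscle, was the stable member with the lowest fold change. It stood at 2250 and 2463 normalised counts in WT con and at 643, 647 and 542 in NRF1 KD, with the double KD libraries at 889, 794 and 748. Its log2 fold change was -1.95 ± 0.12 (adjusted p = 5.62e-05), and the groups were far apart. Musk, the receptor kinase that gathers acetylcholine receptors at the synapse, stood at 2367 and 2427 against 1150, 1058 and 997 (-1.17 ± 0.10, adjusted p = 0.00048). Myog, the myogenic factor that drives the receptor genes, stood at 10381 and 10652 against 5831, 4956 and 4936 (-1.01 ± 0.11, adjusted p = 0.00194). The double KD libraries lay at 1260 to 1286 for Musk and at 4784 to 5811 for Myog, again below both WT con libraries.

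Gadd45a, a growth-arrest gene that fibres raise strongly after denervation, stood at 71447 and 68348 normalised counts in WT con and at 29708, 30668 and 23841 in NRF1 KD. The difference was -1.32 ± 0.14 on the log2 scale (adjusted p = 0.00183) and was stable. Hdac4, the deacetylase that represses Dach2 and so releases Myog, fell by 0.94 and the potassium channel gene Kcnn3 by 0.82, also in the stable core. Myod1 fell by 1.12 (adjusted p = 0.00728), but not without WT con library 2 (adjusted p = 0.0508). Receptor subunits themselves moved less. Chrna1 and Chrnd were called lower at -0.51 and -0.46, while Chrng, the fetal subunit, overlapped between the groups, at 6003 and 3618 against 3622, 4143 and 3070 (adjusted p = 0.25). Hdac4, Kcnn3 and the receptor subunits are named after their values were seen. Sln, the sarcolipin gene, was the 1 member that rose, from 5246 and 6828 to 12816, 12935 and 10158 (0.99 ± 0.23, adjusted p = 0.0213). It lost its call without WT con library 2 and without NRF1 KD library 1 or 2 (adjusted p up to 0.168), and in double KD it stood at 4191 to 7891.

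**Figure D2:**
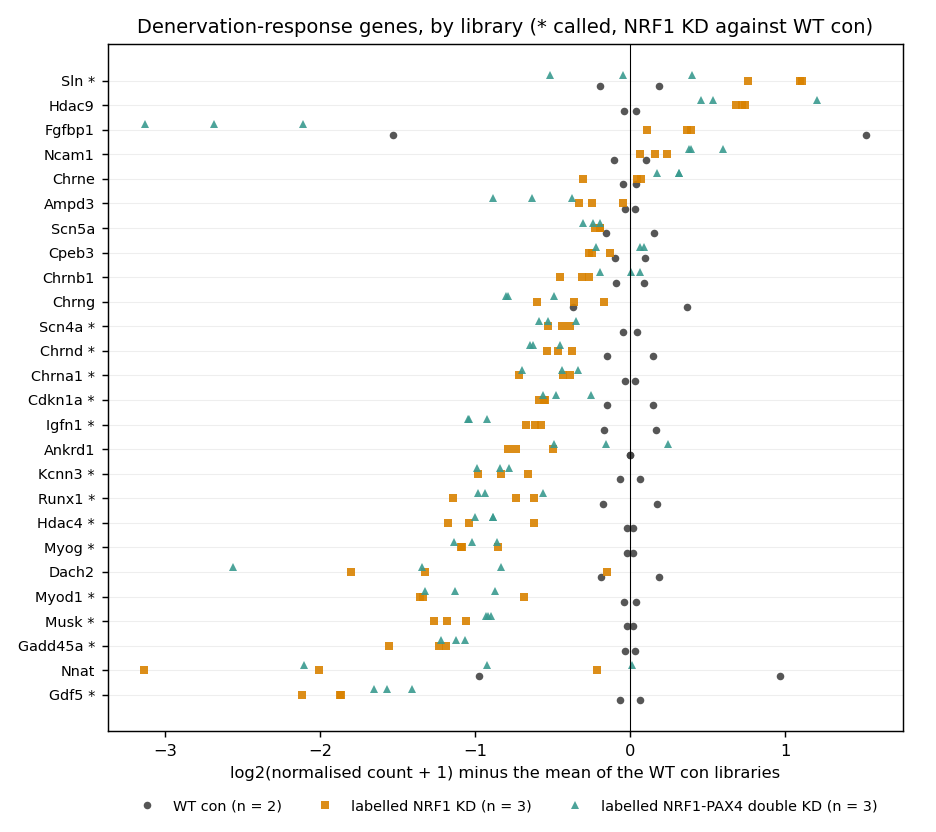
Each row is 1 of the 26 denervation-response genes, and each mark 1 library, placed by log2(normalised count + 1) minus the mean of the 2 WT con libraries. For Gdf5, Gadd45a, Musk and Myog the 3 NRF1 KD libraries (orange) lie below both WT con libraries (grey), with double KD (green) on the same side; Fgfbp1 and Nnat spread widely within WT con.

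Genes of the neuromuscular junction did not move together. Of 19 organisers 3 fell (Musk, Rapsn at -0.44 and Lrp4 at -0.58) and 2 rose, with a median of 0.21. Rapsn anchors the receptor and Lrp4 binds agrin. Colq, which tethers acetylcholinesterase, rose from 82.7 and 96.0 to 195, 224 and 251 normalised counts (1.31 ± 0.24, adjusted p = 0.00963), and Dusp6, a phosphatase of the ERK pathway, rose by 0.58. With WT con library 2 left out, 1 member of the list fell and 0 rose; for Colq the adjusted p was then 0.0685.

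The calls over all genes were also set beside the separate denervation comparison. The 2 comparisons share no library. Columns of the raw count set name the group and a number found in no label, so its libraries are called 1 to 3 in the order of those numbers, which innervated and denervated columns share. One innervated library, here 2, stood apart, with Gadd45a at 67.8 CPM against 16.0 in library 1 and Myog at 27.3 against 3.84 and 6.28, so shares are also given without it. Of the 573 genes that fell in NRF1 KD and could be tested, 253 (44.2%) were higher and 51 (8.90%) lower in denervated than in innervated WT muscle. For the 1153 that rose, 18.2% were higher and 10.5% lower, and for all 14511 genes tested in both, 17.5% and 16.4%. The median log2 fold change with denervation was 0.34 for genes that fell, 0.30 for genes that rose and 0.03 for all. By the median, both groups thus lay above all genes by like amounts. Shares called also depend on level, which was not matched: genes that fell had a median of 1846 normalised counts, against 241 for genes that rose. Without innervated library 2 the share higher was 39.7% among genes that fell and 23.8% among genes that rose. Leaving out any 1 of the 6 WT libraries, the share higher among genes that fell ran from 34.4% to 49.8%. Among genes that rose it ran from 6.89% (without innervated library 3) to 23.8%, with 6.97% without innervated library 1 and 7.92% without denervated library 1.

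Of the 12 abundant genes with the lowest fold change in NRF1 KD, 10 were ones that denervation raised. Ces2c, a carboxylesterase, stood at 1309 and 1414 normalised counts in WT con and at 268, 336 and 226 in NRF1 KD (-2.31 ± 0.24, adjusted p = 0.00183), and denervation raised it by 4.05 ± 0.85 on the log2 scale, or by 7.63 ± 0.49 without innervated library 2. Krt8, an intermediate filament gene, stood at 760 and 2029 against 450, 275 and 275 (-1.94 ± 0.36, adjusted p = 0.0095), with a wide gap between the WT con libraries. Ppp1r27, a regulatory subunit of protein phosphatase 1, fell from 39556 and 30161 to 12170, 10686 and 11219 (-1.61 ± 0.18). Map1b, a microtubule-associated protein (-1.32), Plekhh1 (-1.33) and the transporter gene Slc16a9 (-1.33) fell as well, and all 6 were stable. Denervation raised each of them, by 1.18 for Slc16a9 up to 4.33 for Plekhh1, and without innervated library 2 by 1.09 for Slc16a9 up to 9.19 for Krt8. The potassium channel gene Kcnk5 fell by 1.65 but not without WT con library 3 (adjusted p = 0.0578).

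Abhd1 and Hddc3, also among the 12 with the lowest fold change, were not called with denervation. Without innervated library 2 their changes with denervation were 0.79 ± 0.89 and 0.89 ± 0.62, too wide to tell a rise from none. Abhd1 was also near the floor in that set, at 0.19 to 1.08 CPM in innervated and 0.78 to 2.28 in denervated WT muscle. Hddc3 stood at 453 and 1049 in WT con and at 311, 285 and 302 in NRF1 KD, whereas the double KD libraries lay at 966, 1257 and 1445. Abhd1 stood at 439 and 595 against 141, 296 and 122, with double KD at 523, 602 and 446. The calls of both were lost without WT con library 3 and without NRF1 KD library 3 (adjusted p up to 0.107), and that of Hddc3 also without NRF1 KD library 2.

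**Figure D3:**
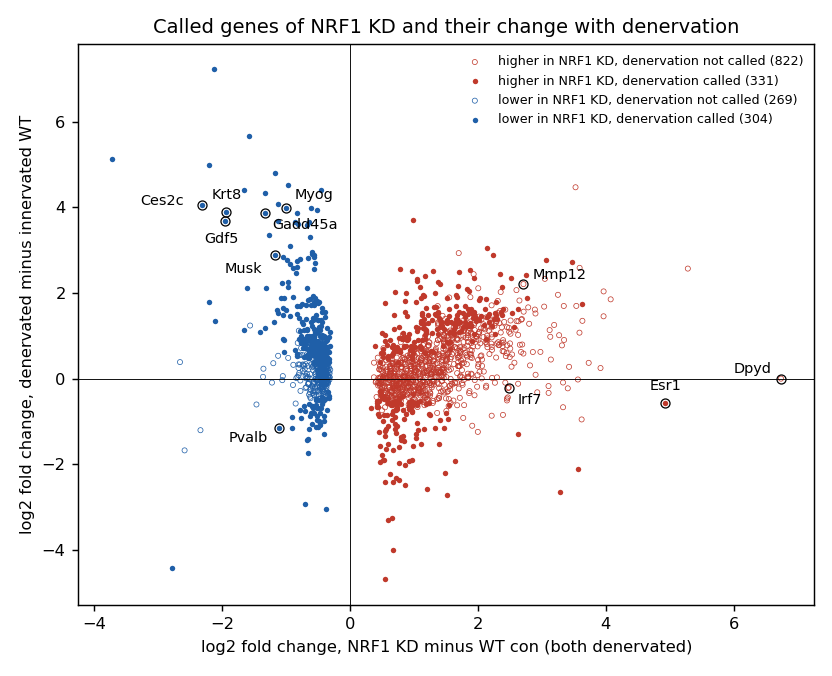
Each point is 1 called gene, placed by its log2 fold change in NRF1 KD minus WT con (horizontal) and in denervated minus innervated WT muscle (vertical); filled points were also called with denervation. On the left, 253 of the 573 genes that fell were higher with denervation, with Gdf5, Gadd45a, Myog and Musk in the upper left; Pvalb was lower in both.

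Proteasome subunit genes fell by small amounts. Of the 14 core and 19 regulatory particle genes, 10 and 16 fell, with medians of -0.41 and -0.47, and 0 of 33 rose. Psmb3, a beta subunit of the core, stood at 5382 and 5350 normalised counts in WT con and at 3668, 3734 and 3104 in NRF1 KD (-0.62 ± 0.12, adjusted p = 0.0108), and Psmc4, an ATPase of the base, at 6165 and 6027 against 4393, 4579 and 4208. Both lay lower in every NRF1 KD library. Their calls, and those of all the other subunits, rested on WT con library 2: without it, with 1 WT con library left, 0 core and 0 regulatory genes were called (adjusted p = 0.0685 for Psmb3). Their sizes moved little over the fits with 1 library out, from -0.67 to -0.54 for Psmb3 and from -0.50 to -0.44 for Psmc4. Without NRF1 KD library 3 the counts were 1 and 3. Of 7 assembly chaperones 0 passed limma or edgeR, 1 did at an unadjusted p under 0.05 and 1 fell by DESeq2; Pomp stood at -0.45 ± 0.14 (adjusted p = 0.0683).

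The inducible proteasome subunits went the other way. Psmb8, Psmb9 and Psmb10 replace the catalytic beta subunits in immune cells and after interferon, and these 3 of 11 listed genes rose, while 0 fell. Psmb8 stood at 282 and 240 normalised counts in WT con and at 523, 614 and 593 in NRF1 KD (1.14 ± 0.15, adjusted p = 0.00322). Psmb9 rose by 1.09 and Psmb10 by 0.62. Psmb8 and Psmb9 were stable, and Psmb10 was not called without WT con library 2 (adjusted p = 0.0684). In double KD, Psmb8 lay at 386, 324 and 296, between the other groups.

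Genes of other steps of protein breakdown fell in part, beside 3.72% of all genes. Of 19 genes of p97, the ATPase that extracts ubiquitinated proteins, and its cofactors, 6 fell (median -0.23), among them Nsfl1c (-0.44), Ufd1 (-0.46), Nploc4 (-0.43) and Ubxn4 (-0.46); without NRF1 KD library 3, 0 were called, and without WT con library 2, 1. Trim63, the ubiquitin ligase MuRF1, stood at 18335 and 25220 against 13187, 12529 and 12247 (-0.77 ± 0.16, adjusted p = 0.0138), and Trim54, its relative, fell by 0.42. They were the 2 of 19 atrophy ligases that fell, and neither was called without WT con library 3 or NRF1 KD library 3. Ube2g1, a conjugating enzyme, was the 1 of 13 ubiquitin and E1 and E2 genes that fell (-0.57). Of 14 genes around Nfe2l1, 2 fell, among them the small Maf factor Mafk (-0.72), and 0 fell without WT con library 2 (adjusted p = 0.0622 for Mafk).

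Of 33 autophagy and lysosome genes 3 fell and 3 rose, beside 3.72% and 7.58% of all genes, with a median of -0.18. Gabarapl1 (-0.49) and Atg12 (-0.53), parts of the conjugation system of autophagosomes, and the starter kinase Ulk1 (-0.53) fell. The lysosomal genes Npc2 (0.95 ± 0.14) and Ctss (2.29) were among those that rose, and Npc2 alone of the 6 was stable. Without WT con library 2, 1 rose and 1 fell.

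Known targets of alpha-PAL in mitochondria gave no call. Of 17 listed genes for mitochondrial DNA upkeep and expression, 0 were called by limma, edgeR or DESeq2 and 2 passed an unadjusted p under 0.05, with a median of -0.17 and 15 negative values. Top1mt, the mitochondrial topoisomerase, stood at 600 and 589 normalised counts against 526, 481 and 465 (-0.28 ± 0.11, adjusted p = 0.139), and Polrmt, the mitochondrial RNA polymerase, at 720 and 672 against 552, 621 and 579 (adjusted p = 0.158). For both genes the groups did not overlap, as for 45.9% of all genes. Of 17 other listed targets, Rac2 rose by 1.70 ± 0.27, and Gclc, the catalytic subunit of glutathione synthesis, and the muscle factor Mef2a fell by 0.66 and 0.55. Rac2 is a GTPase of blood cells; its call was stable, while those of Gclc and Mef2a were lost without WT con library 2 or 3 or NRF1 KD library 3. Among 20 regulators of mitochondrial biogenesis 1 passed, the corepressor gene Nrip1 (-0.58).

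Genes of respiration and translation gave few calls, beside 7.58% of all genes higher and 3.72% lower. Of 35 complex I genes 0 passed limma, edgeR or DESeq2 (1 at an unadjusted p under 0.05; median -0.10), and of 39 nuclear genes of complexes II to V 1 rose, Cox6a1, from 775 and 819 to 1173, 1201 and 1342 normalised counts (0.63 ± 0.10, adjusted p = 0.00541), a stable call. The 9 mitochondrially encoded genes in the table gave 0 calls by limma, edgeR or DESeq2, 0 at an unadjusted p under 0.05, and a median of 0.09. Of 75 mitochondrial ribosomal protein genes 2 fell, Mrpl49 and Mrps30, and 22 had an unadjusted p under 0.05 (limma, median -0.17). Of 33 import genes 0 passed limma, edgeR or DESeq2 (6 at an unadjusted p under 0.05, median -0.14). Values were negative for 67 of these 75 genes, 31 of these 33 and 34 of the 35 complex I genes. The median over all genes with a mean of at least 200 normalised counts was -0.08. Of 24 TCA cycle genes 0 passed limma or edgeR (3 at an unadjusted p under 0.05; median -0.10), and DESeq2 called 1 higher and 1 lower. Of 23 fatty acid oxidation genes 1 fell (Slc25a20, -0.34) and of 25 glycolysis and glycogen genes 1 rose (Pgm1, 0.78). Pgm1 here is the gene annotated under that symbol at chr5:64092950-64128351. The 74 cytosolic ribosomal protein genes gave 0 calls by limma, edgeR or DESeq2, 0 at an unadjusted p under 0.05, and a median of 0.00, with Rplp0 at 0.22 (adjusted p = 0.197). Of these 1-gene calls only that of Cox6a1 was stable. With denervation of WT muscle, by contrast, 15 complex I genes and 18 glycolysis genes fell and 73 ribosomal protein genes rose.

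**Figure D4:**
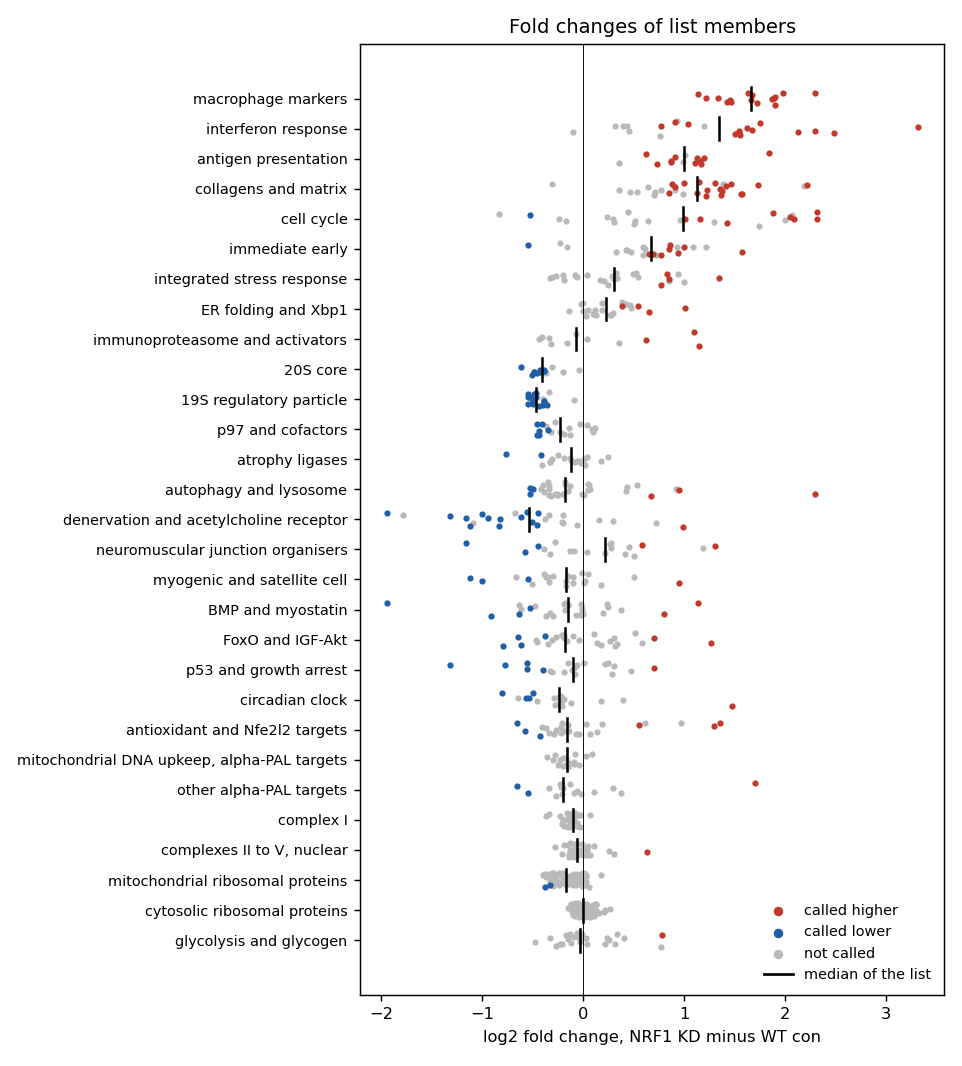
Each point is 1 member of a gene list, placed by its log2 fold change in NRF1 KD minus WT con, red where called higher, blue where called lower, and the black bar is the median of the list. Macrophage (median 1.67), interferon (1.35) and matrix genes (1.13) lie to the right. Proteasome core (-0.41), regulatory particle (-0.47) and denervation-response genes (-0.54) lie to the left. Complex I (-0.10), mitochondrial ribosomal (-0.17) and cytosolic ribosomal genes (0.00) lie nearer 0.

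Markers of macrophages rose. All 16 measured macrophage markers rose (median 1.67), and 6 did without WT con library 2 and 10 without NRF1 KD library 3; Itgam was not in the table. Laptm5, a lysosomal protein of leukocytes, stood at 484 and 529 normalised counts in WT con and at 1242, 2307 and 2190 in NRF1 KD (1.86 ± 0.25, adjusted p = 0.00322). The signalling adaptor Tyrobp (1.90) and the complement genes C1qa (1.72) and C1qc (1.63) rose and were stable with it. NRF1 KD library 1 lay below libraries 2 and 3 for each of these genes. Summed over the list, levels ran from 9190 to 12198 normalised counts in WT con, from 21895 to 44762 in NRF1 KD and from 16882 to 26420 in double KD. In bulk muscle, more cells of a type and more RNA per cell cannot be told apart, and the part of these cells in the other differences was not tested.

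Chemokines and other myeloid products rose alongside. Ccl7, a monocyte attractant, stood at 67.5 and 48.5 normalised counts against 248, 605 and 428 (2.79 ± 0.33, adjusted p = 0.00227). Mmp12, the macrophage elastase, stood at 60.9 and 61.1 against 231, 622 and 461 (2.71 ± 0.34), and the surface receptor gene Cd84 at 66.4 and 67.9 against 240, 499 and 499 (2.52 ± 0.29). Ccl6 (2.34), Ccl9 (2.28), Ms4a6d (2.37) and Cd52 (2.31) were stable too. Ccl8 (2.34) and the protease gene Ctss (2.29) were not called without WT con library 2 (adjusted p = 0.0671 and 0.0573). In double KD, Ccl7 lay at 191, 136 and 166 and Mmp12 at 165, 161 and 122, between the other groups.

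Interferon-response genes rose in 14 of 22 cases (median 1.35), and 8 rose without WT con library 2, the fewest with 1 library out. Irf7, the factor that amplifies type I interferon, stood at 74.0 and 82.4 normalised counts against 331, 501 and 516 (2.48 ± 0.21, adjusted p = 0.000512), and was not called with denervation (-0.21, adjusted p = 0.51). Bst2, which tethers budding virus particles, stood at 211 and 210 against 499, 628 and 677 (adjusted p = 0.00219). Isg15, a ubiquitin-like modifier, rose by 2.13 and Rtp4 by 1.54. All 4 were stable. Over all genes 7.58% were higher in NRF1 KD. In the denervation comparison 1 of the 22 rose and 2 fell, beside 13 of 16 macrophage markers that rose there.

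Genes of antigen presentation rose in 11 of 14 cases (median 0.99), beside 7.58% of all genes. B2m, the light chain of MHC class I, stood at 3547 and 3274 normalised counts against 5554, 6384 and 6853 (0.87 ± 0.13, adjusted p = 0.00416), and H2-DMb1, which edits class II peptides, rose by 1.83; these 2 were stable. H2-D1, a class I heavy chain of a gene family with near-identical copies among which reads can be split, rose by 0.87, and Tap1, the peptide transporter, by 1.20. Without WT con library 2 the count was 2, and without NRF1 KD library 2 or 3 it was 3. The summed level ran from 22193 to 25086 in WT con, from 35232 to 55322 in NRF1 KD and from 24547 to 40699 in double KD.

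The neutrophil genes S100a8 and S100a9, which form 1 protein complex, parted. The first fell from 2817 and 1962 to 948, 802 and 645 normalised counts (-1.57 ± 0.31, adjusted p = 0.0115), and S100a9 rose from 50.1 and 33.9 to 174, 333 and 211 (2.45 ± 0.42, adjusted p = 0.00676). Denervation raised S100a8 by 5.66 ± 0.79, while S100a9 was not called (edgeR, adjusted p = 0.54). Without innervated library 2, S100a9 stood at -0.53 ± 0.62, too wide to tell a change from none. The call of S100a8 was lost without WT con library 2 and without NRF1 KD library 3 (adjusted p up to 0.0984). Of 6 measured neutrophil markers 3 rose, with Csf3r, the receptor for G-CSF, at 2.22, and S100a8 alone fell. The median was 2.33, and 5 of the 6 values were positive. Summed levels were 2053 to 2907 in WT con and 1126 to 1434 in NRF1 KD. S100a8 makes up most of each of these sums, so their fall is that of 1 gene. Ly6g, Elane, Mpo, Camp, Ngp and Ltf were not in the table. Of 9 measured lymphocyte markers 3 rose, the pan-leukocyte gene Ptprc (1.85 ± 0.30, stable), Cd4 and Trbc2. Cd4 and Trbc2 lost their calls without any 1 NRF1 KD library and without double KD library 2. Ms4a1 lay lowest, at -1.65, and was not called. Summed levels ran from 237 to 344 in WT con and from 642 to 1163 in NRF1 KD. Ptprc alone averaged 507 normalised counts over the 8 libraries, so it makes up most of the sum. Cd3e, Cd8a and Cd79a were among those not in the table.

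**Figure D5:**
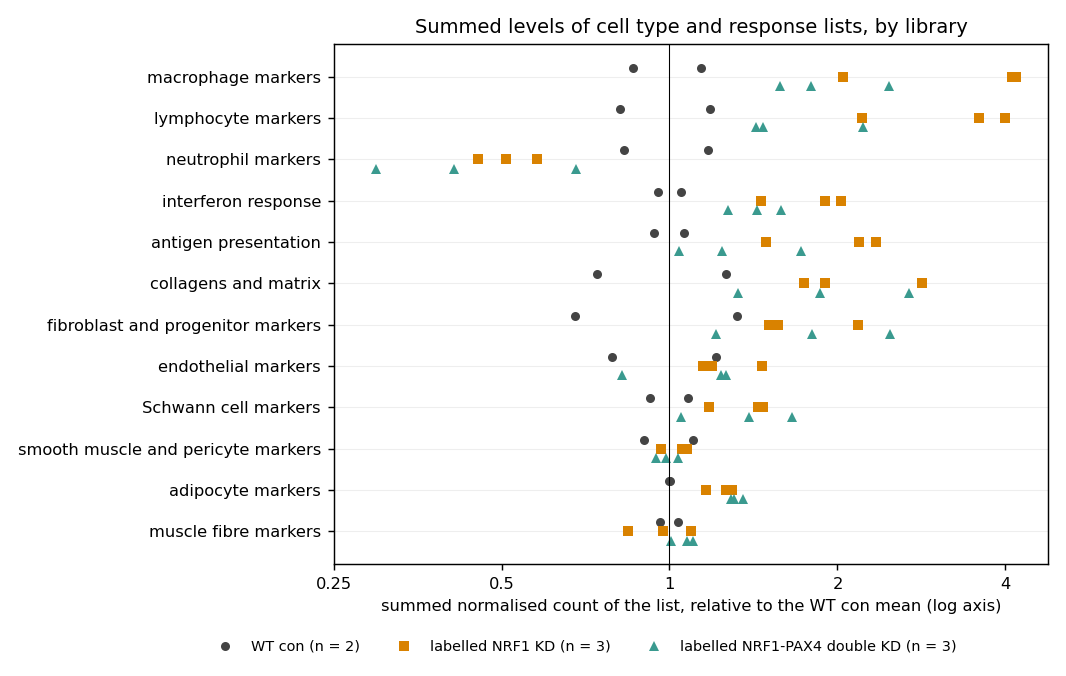
Each mark is 1 library, placed by the summed normalised count of a list relative to the mean of the 2 WT con libraries (log axis). Macrophage sums in the 3 NRF1 KD libraries (orange) lie at 2.05 to 4.19 times WT con and matrix sums at 1.74 to 2.84 times, while muscle fibre and smooth muscle sums overlap WT con.

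Extracellular matrix genes rose together, but the call leaned on 1 library. Of 31 collagen and matrix genes 18 rose and 0 fell (median 1.13), beside 7.58% and 3.72% of all genes. Col3a1, a fibrillar collagen, stood at 6500 and 10537 normalised counts in WT con and at 17291, 22974 and 29747 in NRF1 KD (1.46 ± 0.33, adjusted p = 0.0192), and Col1a2 at 3878 and 7050 against 13965, 12354 and 21378 (1.56 ± 0.37). Sparc, a collagen-binding glycoprotein, rose by 1.00, the crosslinking enzyme gene Loxl1 by 0.90 and Tnc, tenascin C, by 1.35. Without WT con library 2, which was the lowest for Col3a1 and Col1a2, 1 member was called, and without NRF1 KD library 3, 5. That 1 stable gene was Timp1, an inhibitor of matrix proteases, at 916 and 800 against 1803, 2524 and 2590 (1.41 ± 0.21, adjusted p = 0.00416). Of 12 fibroblast markers 5 rose (median 0.69; 0 without WT con library 2), with Col1a1 at 1.73 and Ly6a at 0.75, and their summed level ran from 32850 to 63987 in WT con, from 72982 to 105195 in NRF1 KD and from 58690 to 120183 in double KD. The part of these cells in the matrix difference was not tested.

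Markers of other cells gave 0 or 1 call a list, beside 7.58% of all genes higher and 3.72% lower. Of 12 endothelial genes 0 passed limma, edgeR or DESeq2 (4 at an unadjusted p under 0.05; median 0.45), and Pecam1 stood at 0.57 (adjusted p = 0.124). Of 11 Schwann cell genes 1 rose (Pmp22, 0.72), of 11 smooth muscle and pericyte genes 1 (Cspg4, 0.58), of 10 adipocyte genes 0 (2 rose by DESeq2 and 0 by edgeR, and 4 had an unadjusted p under 0.05) and of 6 red blood cell genes 0 (0 at an unadjusted p under 0.05, by edgeR or by DESeq2). The calls of Pmp22 and Cspg4 were lost without WT con library 2 (adjusted p up to 0.292 with 1 library out).

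Proliferation and stress genes rose in part. Of 24 cell cycle genes 8 rose and 1 fell (median 0.98), beside 7.58% and 3.72% of all genes. Ccnd1, cyclin D1, stood at 274 and 355 normalised counts against 591, 597 and 695 (1.00 ± 0.15, adjusted p = 0.00416) and was stable. Mki67 (67.5 and 54.3 against 150, 276 and 393), Cdk1 (2.09) and Ccnb2 (1.87) were at low levels and rose, while Rrm1, of ribonucleotide reductase, fell by 0.53. The count rising was 2 to 4 without either WT con library or NRF1 KD library 2 or 3, and 14 without NRF1 KD library 1. Of 22 immediate early genes 8 rose and Jun fell by 0.55. Ier3 stood at 415 and 373 against 757, 773 and 740 (0.94 ± 0.11, adjusted p = 0.00219) and Fos at 517 and 194 against 944, 1018 and 882 (1.58 ± 0.32), both stable, and 3 to 5 rose without WT con library 3 or NRF1 KD library 2 or 3.

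Genes of the stress responses of the endoplasmic reticulum and of translation rose by less. Of 25 genes of the integrated stress response 4 rose (median 0.30), beside 7.58% of all genes. Ddit3, the factor CHOP, stood at 701 and 594 against 1123, 1245 and 1079 (0.83 ± 0.12, adjusted p = 0.00421), and Trib3 (1.34), Atf3 (0.77) and Aldh18a1 (0.84), of proline synthesis, rose as well. Of 22 folding genes 4 rose (median 0.22), with Edem1, which marks misfolded glycoproteins for disposal, at 1.01 ± 0.17, followed by Pdia4 (0.65), Sdf2l1 (0.54) and Manf (0.38). Ddit3 and Edem1 were stable; the lowest count with 1 library out was 1 for either list, without NRF1 KD library 3. Of 30 aminoacyl-tRNA synthetase genes 2 fell, Farsa (-0.54) and Gars (-0.44), with a median of -0.15.

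Some chaperone and antioxidant genes were called, beside 7.58% of all genes higher and 3.72% lower. Hspb8, a small heat shock protein of selective autophagy, was among the most abundant genes that fell, at 177226 and 158468 normalised counts against 93862, 100215 and 86621 (-0.84 ± 0.17, adjusted p = 0.0128), and was not called without WT con library 2 (adjusted p = 0.11). Dnajb2 (-0.40) and the myosin chaperone gene Unc45b (-0.42) fell and Hspb3 rose by 0.58, out of 36 chaperones (median -0.18). Of 26 antioxidant genes 3 rose and 3 fell. Gpx1, a glutathione peroxidase, rose by 0.55 ± 0.10 and Prdx6, a peroxiredoxin, fell by 0.58 ± 0.09, both stable. The metallothionein genes Mt1 and Mt2 rose by 1.35 and 1.30, from WT con libraries that differed widely (Mt2 at 5073 and 2068 against 7380, 9474 and 7232), and catalase, Cat, fell by 0.43. The calls of Mt1 and Mt2 were lost without WT con library 3 and without NRF1 KD library 2 or 3 (adjusted p up to 0.117).

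Pvalb, the calcium buffer of fast fibres, stood at 249386 and 242474 normalised counts in WT con and at 133336, 109898 and 101436 in NRF1 KD, with double KD at 158658, 140331 and 159721. It fell to 0.464 times WT con (adjusted p = 0.0062), was stable, and was the 1 of 14 fast fibre genes that passed (median -0.21). Denervation also lowered Pvalb (-1.14 ± 0.24, adjusted p = 0.0059). Of 12 slow fibre genes 1 rose, beside 7.58% of all genes: Casq2, the slow calsequestrin (0.96). Of 24 developmental and sarcomere genes 3 rose, Actc1 (1.52), Myh8 (0.76) and Lmod3 (0.54), and Mybph, a myosin-binding protein, fell from 23782 and 20318 to 13102, 11126 and 11426 (-0.89 ± 0.12, adjusted p = 0.0031), the stable one of these. Without WT con library 3 none of the 3 was called.

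Excitation-contraction coupling genes fell in 3 of 23 cases and 1 rose, Casq2 (median -0.21). The count that fell was 1 without WT con library 3 or NRF1 KD library 3, and 0 rose without WT con library 2. Mrln, myoregulin, an inhibitor of the sarcoplasmic calcium pump, stood at 4262 and 3492 against 2066, 1934 and 1584 (-1.06 ± 0.14, adjusted p = 0.00322) and was stable. Cacng1, of the calcium channel, fell by 0.55 and Scn4a, the sodium channel of adult fibres, by 0.45. Of 24 genes of the dystrophin complex and costamere 1 rose (Sgcd, 0.72) and 1 fell (Dysf, -0.81). Sgcd was not called without WT con library 2, nor Dysf without WT con library 3, any 1 NRF1 KD library or double KD library 2 (adjusted p up to 0.228). Of 22 myogenic and satellite cell genes 3 fell and 1 rose (Vcam1, 0.95).

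Growth signalling changed at single points, beside 7.58% of all genes higher and 3.72% lower. Igf1, the growth factor, stood at 369 and 416 normalised counts against 854, 942 and 1046 (1.27 ± 0.17, adjusted p = 0.0031), and Akt2, a kinase downstream of its receptor, at 11725 and 11392 against 7274, 7892 and 6966 (-0.65 ± 0.09, adjusted p = 0.00402). Both were stable. Of 28 FoxO and IGF-Akt genes 2 rose and 4 fell, the others being Sesn1 (0.70), Foxo6 (-0.80), Igfbp5 (-0.62) and Mtor (-0.38); without WT con library 2, or without NRF1 KD library 3, 1 rose and 1 fell. Mstn, myostatin, which limits muscle growth, stood at 496 and 670 against 305, 317 and 297 (-0.91 ± 0.14, adjusted p = 0.00541), while double KD lay at 496, 538 and 535. Tgfbr1, a receptor of that pathway, fell by 0.53 and was stable like Mstn and Gdf5; Smad3 fell by 0.64 and Fstl1 and Bmp1 rose by 1.14 and 0.80. These make 4 that fell and 2 that rose of 27 BMP and myostatin genes, and 0 rose without WT con library 2.

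Among other lists, 5 of 20 p53 and growth-arrest genes fell and 1 rose, beside 3.72% and 7.58% of all genes. Eda2r, a receptor of the TNF family, stood at -0.78 (stable, as Gadd45a), Ei24 at -0.56 and Cdkn1a at -0.56. Of 13 polyamine genes 2 rose, Sat1 (0.67, stable) and Azin1 (0.50). Of 18 clock genes Nfil3, a repressor of the D-box, rose from 436 and 469 to 1200, 1214 and 1370 (1.47 ± 0.11, adjusted p = 0.000318), and 4 fell, Nr1d1 (-0.81), Dbp (-0.57), Tef (-0.54) and Clock (-0.50). Nfil3 alone of these was stable, 1 fell without WT con library 2, and it was lower with denervation (-1.15 ± 0.23). Of 23 genes of splicing and nuclear transcripts 2 rose, Rian (0.96) and Meg3 (0.92), and of 11 imprinted growth genes 1 rose and 1 fell (Zim1, -0.61). Lmcd1 (1.06 ± 0.17), a cofactor of muscle and heart, was the stable one of the 6 most abundant genes that rose, with Mustn1 (0.70) and Tmsb4x (0.64) lost without WT con library 3. Mknk2 (-0.69 ± 0.12), a kinase of translation initiation, was stable among the most abundant that fell; Igfn1 (-0.62) and Igfbp5 were lost without WT con library 2.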

How the data were processed

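RNA of denervated mouse skeletal muscle was measured by RNA-seq, prepared with the SMARTER mRNA-Seq kit per the labels' protocols. The submitters' processing notes name GRCm38 and mm10; which aligner, counter and annotation were used is not given in the sources used here. Deposited log2 values of the knockdown set are those of DESeq2's variance-stabilising transformation, beside a signal column, the mean normalised count over the libraries. The authors also deposited the log2 fold change, p-value and adjusted p of their DESeq2 test, and its Wald score, of which only calls are used. For the innervated, denervated and PAX4 KO libraries they deposited raw counts per gene.

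Values were inverted to normalised counts (2^v less the smallest value's power, squared, over 2^v), which matched the deposited mean within 3.34e-07%, and 100% came out as whole reads within 0.05 at 1 size factor a library. No column of per-sample values was left out (0). limma 3.58.1 (limma-trend, R 4.3.3) was run on log2(normalised count + 1) with WT con, NRF1 KD and double KD in 1 fit, and p adjusted by Benjamini-Hochberg over 15624 genes. Fold changes are on that scale, which understates low genes. Denervation was tested with edgeR 4.0.16 (quasi-likelihood, TMM, filterByExpr) on raw counts, in 9 libraries, for 16146 genes. Each adjusted p is from these fits, and ± is the SE. Symbols came through Ensembl identifiers for 15598 genes. The scripts were tested on simulated data, with 200 of 15624 genes changed in each run. At a log2 change of 0.5, 0.0% of the changed genes were recovered. At changes of 1 and 2, 86.0% and 99.5% were recovered, with 11 and 12 unchanged genes also called. The data gave 1765 calls, and an adjusted p depends on how many genes change. The simulated shares therefore do not carry over to the data, least of all for changes near 0.5.

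Members and gene lists were chosen with earlier results of these data known. Lists are described by counts and medians, with no test, and some members are not reported here. Named genes were Nrf1 and Pax4; the 12 highest and 12 lowest fold changes of called genes at a mean of 200 or more, no overlap and no provisional symbol; the 6 most abundant called genes each way; and per list up to 4 called genes each way by adjusted p, or 2 where none was called. Alternatives were pseudocounts of 0.1 and 5, the deposited values, TMM, edgeR, DESeq2 1.42.0, a mean of at least 200, a fold change of at least 1, only the compared groups, a replicate block and each library left out.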

Additional observations from a re-analysis of the deposited data

How the results depend on the processing

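All 165 named genes with a call kept their direction under the alternatives run, and 57 kept their call whichever library was left out. Higher and lower genes were 1198 and 474 with edgeR, 1549 and 858 with DESeq2 and 1278 and 465 with TMM. With a mean of at least 200 normalised counts 653 were higher, and a log2 fold change of at least 1 left 759 higher and 58 lower. Leaving out each library in turn gave 415 to 1306 higher and 126 to 757 lower; the cause was not tested beyond the smaller number of samples. Replicate numbers gave no common pairing over the 3 groups. Same-numbered NRF1 KD and double KD libraries had deviations correlated at -0.42, -0.12 and -0.50. For WT con and double KD the values were -0.10 (number 2) and -0.42 (number 3). For the compared groups, WT con and NRF1 KD, they were 0.10 and 0.40, so a pairing of these 2 groups was not settled. With the replicate number as a block, 513 genes were higher and 117 lower. Denervation gave 1741 to 2692 higher and 1768 to 2591 lower genes with 1 WT library out, and 2538 and 2496 with the replicate block on the numbers that innervated and denervated columns share (correlation of deviations 0.203, 0.049 and 0.318), which no label ties to animals. Of genes that rose, 21.6% were higher with denervation by DESeq2 calls. With 1 library left out, chosen after seeing the data, the shares higher and lower with denervation ran from 6.89% to 23.8% and from 6.11% to 12.2% of genes that rose, and from 34.4% to 49.8% and from 6.10% to 10.1% of genes that fell. The fold changes of mt-Rnr2 and Alas2, not called, turned sign with 1 library out: mt-Rnr2 ran from -0.044 (without NRF1 KD library 1) to 0.24, and Alas2 from -0.26 (without WT con library 2; -0.12 without NRF1 KD library 2) to 1.93. With 2 WT con libraries, small changes may go uncalled at any level, so a list with no call may hold some.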

Other observations

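Chosen after their values were seen, F7 and F10, neighbouring coagulation factor genes best known from liver, rose at low levels. F10 stood at 9.79 and 15.5 normalised counts in WT con, at 105, 353 and 241 in NRF1 KD and at up to 56.1 in double KD (3.96 ± 0.44, adjusted p = 0.00194, limma). F7 stood at 4.35 and 0.970 against 54.7, 187 and 191 (5.28 ± 0.58, adjusted p = 0.00194). Saa3, an acute-phase protein that macrophages also make, stood at 3.26 and 3.88 against 49.9, 76.0 and 91.1 (3.96 ± 0.42, adjusted p = 0.00183). For all 3 genes each NRF1 KD library lay above both WT con libraries, and macrophage markers rose in the same libraries; their part in these values was not tested.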
